A study of Homo sapiens with 6 samples.

Results

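Fibroblast growth factor (FGF) receptors and the inhibitors that act against their signal were followed in Rh30 cells after silencing of P/CAF. The set held 10 genes, chosen by name: the receptors FGFR1, FGFR2, FGFR3, FGFR4 and FGFRL1, and the inhibitors SPRY1, SPRY2, SPRY4, SPRED1 and DUSP6. Every probe that the platform annotation assigns to these genes was read, which gave 21 of the 47323 probes on the array. Of these, 14 probes from 8 genes were bright enough to be tested (3 or more of the 6 arrays with a detection p below 0.05), among 21232 tested probes in all. After siP/CAF the decoy-type receptor FGFRL1 fell on both of its probes, by 1.95-fold and 2.02-fold, and the Sprouty gene SPRY4 fell 1.55-fold on its brighter probe. No other member passed the test. Each FGFRL1 call was lost without certain single arrays, and the SPRY4 call without any 1 of the 6. The size on the dimmer FGFRL1 probe also depended on the background correction.

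Rh30 cells derive from an alveolar rhabdomyosarcoma and carry the PAX3-FOXO1 fusion (also written PAX3-FKHR). Cells of 1 group received a scrambled control siRNA and those of the other an siRNA against P/CAF, a lysine acetyltransferase encoded by KAT2B. RNA was taken 72 h after transfection, with 3 samples in each group and 1 Illumina bead array per sample. The labels number the samples except the last of the siP/CAF group, which is called siP/CAF array 3 here from the order of the records. All samples came from the same line, the labels name no separate cultures, and the sources used here do not say how many siRNA sequences were used. The p-values therefore cover the spread among these samples alone, which may be technical.

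FGF ligands bind receptor tyrosine kinases together with heparan sulfate chains on the cell surface, and the activated receptors pass the signal through the adaptor FRS2 to RAS and the ERK kinases. ERK activity in turn raises the transcription of its own inhibitors. Sprouty and SPRED proteins restrain the pathway at the level of RAS and RAF, and the phosphatase DUSP6 removes the activating phosphates from ERK. FGFRL1 binds FGFs and heparan sulfate but lacks the tyrosine kinase domain. FGFR4 is abundant in rhabdomyosarcoma and is a described target of the PAX3-FOXO1 fusion.

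The silencing was visible in the targeted gene. KAT2B (probe ILMN_3243142) gave bead signals from 608 to 1093 on the control arrays and from 136 to 178 on the siP/CAF arrays. After background correction and quantile normalization this was a 6.83-fold fall. A dim second KAT2B probe, ILMN_1733802, gave 87, 91 and 94 and then 69, 79 and 77. It was detected on 2 control arrays and no siP/CAF array and was not tested. Each array detected 20891 to 21421 probes. Of 10 markers of muscle lineage and alveolar rhabdomyosarcoma 8 were detected on all arrays, with NOS1 and CDH3 on none, and their summed bead signal ran from 24841 to 36274 in the controls and from 20222 to 23984 after siP/CAF. Of these 8, MYOG, the bHLH factor myogenin of muscle differentiation, fell 3.18-fold, from signals of 4734, 2790 and 3368 to 1225, 1167 and 988 (limma, Benjamini-Hochberg adjusted p = 0.000688). The other 7 did not pass; MYOD1 differed by -0.50 on the log2 scale (limma, adjusted p = 0.102). The sum and MYOG lay lower after siP/CAF, as FGFRL1 and SPRY4 did, and their part in those falls was not tested. None of 5 epithelial markers was detected on any array. Of 4 blood markers with a probe CD14 was detected on all arrays and PTPRC and CD3E on none, and the summed signal ran from 325 to 351 in the controls and from 369 to 397 after siP/CAF. Of 5 endothelial markers PECAM1 was detected on all arrays and KDR and VWF on none (766 to 1025 and 702 to 783). Of 6 fibroblast markers COL3A1 and COL1A1 were detected on all arrays and PDGFRA on none (1551 to 2389 and 1478 to 1705). PECAM1 fell 1.51-fold (limma, Benjamini-Hochberg adjusted p = 0.0433), while CDH5, with signals of 62, 58 and 72 and then 92, 104 and 95, and a TEK probe, ILMN_2066151, with 93, 71 and 84 and then 110, 98 and 91, were detected on 0 control and 2 siP/CAF arrays each and were not tested. LYZ, a blood marker, gave 81, 76 and 81 and then 109, 98 and 105, was detected on the siP/CAF arrays alone, and rose (limma, adjusted p = 0.022). The part of these markers was not tested either.

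The promoter windows of the genes that fell, with that of SPRY2 for comparison, are shown because the 3 genes lay lower after siP/CAF, SPRY2 without passing the test. Each is the 250 bases before an annotated transcription start, 5′ to 3′, from RefSeq on GRCh38.p14. Windows were matched by symbol for 9 of the 10 genes, and of several starts the outermost in the table is shown. Longer FGFRL1 and SPRY4 transcripts start further upstream, so that these windows lie within the genes. Capitals mark matches on either strand to the E-box CANNTG, the motif of bHLH factors such as MYOD1 and MYC, to the ETS motif CCGGAA and to TGACG, the half-site of cyclic AMP response elements.
FGFRL1 (chr4:1012214-1012463, plus strand): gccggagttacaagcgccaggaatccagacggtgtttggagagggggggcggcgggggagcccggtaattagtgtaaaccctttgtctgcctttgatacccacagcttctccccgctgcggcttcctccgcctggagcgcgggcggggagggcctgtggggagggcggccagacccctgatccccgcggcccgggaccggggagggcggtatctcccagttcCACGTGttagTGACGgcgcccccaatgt
SPRY4 (chr5:142324248-142324497, minus strand): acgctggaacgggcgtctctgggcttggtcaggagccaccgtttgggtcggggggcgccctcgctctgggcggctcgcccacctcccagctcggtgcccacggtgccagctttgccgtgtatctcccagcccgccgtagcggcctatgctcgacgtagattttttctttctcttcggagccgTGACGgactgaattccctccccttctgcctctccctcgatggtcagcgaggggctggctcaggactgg
SPRY2 (chr13:80341127-80341376, minus strand): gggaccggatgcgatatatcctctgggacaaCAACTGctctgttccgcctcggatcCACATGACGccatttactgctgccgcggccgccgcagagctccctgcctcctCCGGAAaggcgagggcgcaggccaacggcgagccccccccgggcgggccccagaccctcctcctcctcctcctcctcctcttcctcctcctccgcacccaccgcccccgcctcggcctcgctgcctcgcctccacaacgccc
The FGFRL1 window held an E-box and a TGACG match, the SPRY4 window a TGACG match, and the SPRY2 window 2 E-boxes, an ETS match and a TGACG match that overlaps an E-box. Over all 35116 windows of this length, 61.8% held an E-box, 14.5% the ETS motif and 21.2% TGACG. Of the 17 windows of the members 8 held an E-box, 2 the ETS motif and 3 TGACG. The other SPRY2 windows held none of these motifs. Such matches describe letters in the window and no binding was measured.

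Among the receptors, FGFRL1 fell on both probes. Fewer cells that express the gene and less RNA per cell cannot be told apart in such samples. The brighter probe, ILMN_1795865, gave bead signals of 871, 550 and 1089 on the control arrays and 432, 485 and 358 on the siP/CAF arrays. Every siP/CAF array lay below every control array, with control array 3 the highest and siP/CAF array 3 the lowest. After background correction and quantile normalization, the FGFRL1 level was 9.52 ± 0.35 log2 units (SD, n = 3) with control siRNA and 8.56 ± 0.18 (SD, n = 3) after siP/CAF. This is a log2 difference of -0.97 (SE 0.20; adjusted p = 0.0259 by limma, adjusted over all tested probes by Benjamini-Hochberg, BH below).

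The dimmer FGFRL1 probe, ILMN_2348367, is annotated to another transcript of the gene. Its signals were 183, 170 and 270 for control siRNA and 140, 124 and 119 after siP/CAF, again without overlap. It differed by -1.02 on the log2 scale, SE 0.22 (limma, BH-adjusted p = 0.0284), and without background correction it was -0.60. The brighter probe lost its call without control array 1 (limma, BH-adjusted p = 0.0875) or siP/CAF array 1, 2 or 3 (limma, BH-adjusted p = 0.0879, 0.0536 and 0.0768), and the dimmer without control array 2 (0.0713) or siP/CAF array 1, 2 or 3 (0.0616, 0.0864 and 0.0777). The differences themselves stayed between -1.12 and -0.78 on the brighter probe and between -1.21 and -0.80 on the dimmer when 1 array was left out.

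In all, 3 of the 14 tested member probes passed the threshold of 0.05 on the adjusted p, all lower, against 4.58% of all tested probes in either direction (2.52% lower and 2.06% higher). Without adjustment 6 of the 14 had a p under 0.05 in limma, against 18.9% of all tested probes, and none of these 6 was higher. The 2 groups did not overlap on 7 of the 14 probes, against 24.8% of all tested probes. The median log2 difference of the 14 was -0.40 and that of all tested probes 0.00, and 11 of the 14 differences lay below 0.

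FGFR4, a kinase receptor of the embryonic muscle lineage, lay lower after siP/CAF without passing. Its probe ILMN_2410713 gave signals of 5525, 3927 and 6024 for control siRNA and 3796, 4282 and 3357 after siP/CAF. These uncorrected signals overlapped, since control array 2, the array of lowest median signal, lay below siP/CAF array 2. After normalization the FGFR4 level was 12.32 ± 0.27 in control cells and 11.87 ± 0.16 after siP/CAF on the log2 scale (SD, n = 3), and the groups no longer overlapped. The log2 difference was -0.45, with a 95% interval from -0.85 to -0.05 (limma, BH-adjusted p = 0.209). A second FGFR4 probe, ILMN_1730355, differed by -0.36, with a 95% interval from -0.77 to 0.04. The remaining FGFR4 probe, ILMN_2241412, annotated to another transcript, was detected on 0 of 6 arrays. Both intervals hold the -0.64 measured for SPRY4, and that of the second probe also holds 0.

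FGFR3 gave differences of opposite sign on its 2 probes. The brighter, ILMN_1723123, had signals of 198, 206 and 285 in control cells and 179, 203 and 153 after siP/CAF, and differed by -0.44 on the log2 scale (95% interval -0.93 to 0.05). The dimmer, ILMN_1651966, had signals of 116, 83 and 99 and then 125, 122 and 101, and differed by 0.48 (95% interval -0.01 to 0.96). Both sets overlapped between groups, and neither probe passed (limma, BH-adjusted p = 0.323 and 0.273). The probes are annotated to different FGFR3 transcripts.

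FGFR1 and FGFR2 were not tested. The FGFR1 probe ILMN_1796229 was detected on control array 2 alone, at a signal of 91, and gave 83 and 75 on the other controls and 76, 66 and 61 after siP/CAF. The other FGFR1 probe, ILMN_1729369, lay between 62 and 74 and was detected on 0 of 6 arrays. The FGFR2 probe, ILMN_1682270, lay between 52 and 68 and was also detected on 0 of 6. These signals were near the array medians of 79.1 to 89.7 or below them, and they set only an upper limit on the RNA that these probes read.

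**Figure D1:**
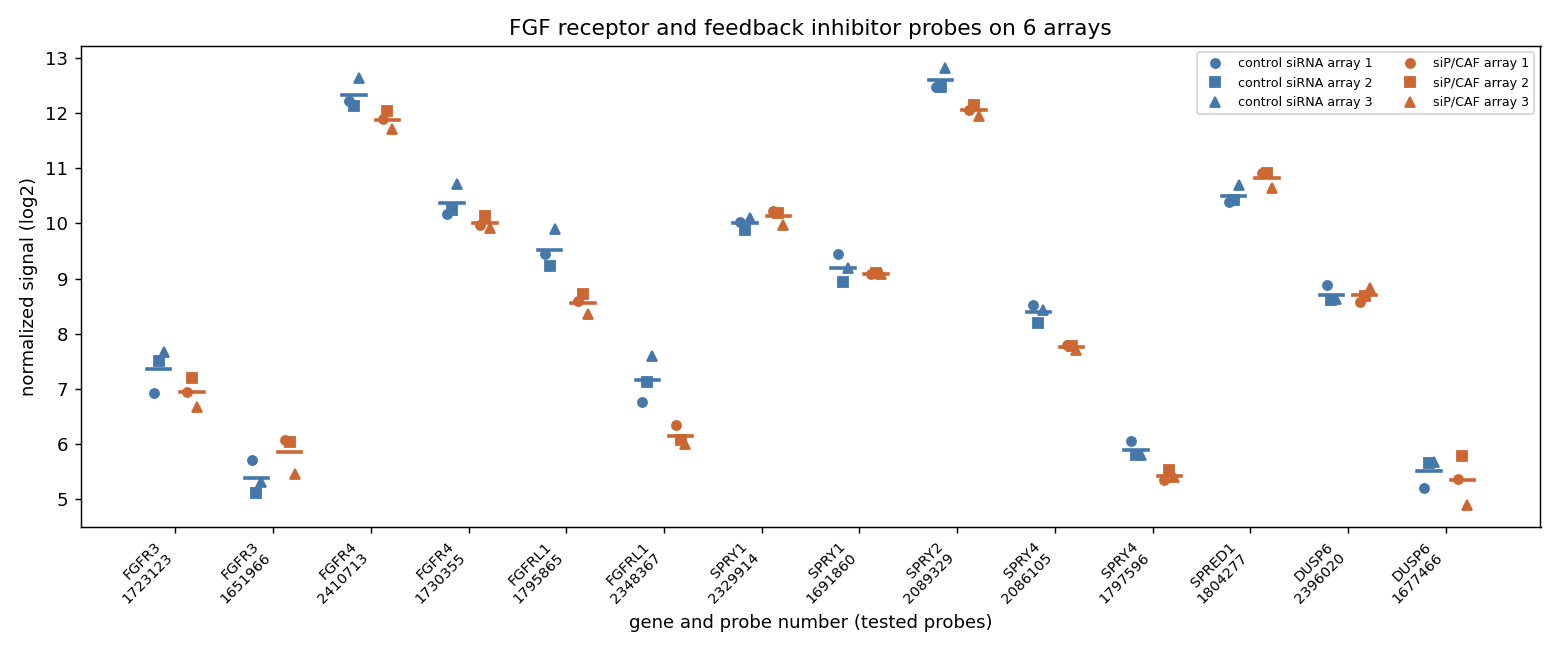
Normalized log2 signal of the 14 tested probes (x axis: gene and probe number) on each of the 6 arrays; blue marks are control siRNA arrays, orange marks siP/CAF arrays, and short lines are group means. The groups stand apart on both FGFRL1 probes, both FGFR4 probes, both SPRY4 probes and SPRY2; heights are not comparable between probes.

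Among the inhibitors, SPRY4 fell. SPRY4 is a Sprouty protein that blocks RAS-ERK activation downstream of receptor kinases, and its transcription follows ERK activity in many cells. Its brightest probe, ILMN_2086105, gave signals of 488, 298 and 445 in control cells and 276, 276 and 248 after siP/CAF. Every siP/CAF array lay below every control array. The SPRY4 level was 8.39 ± 0.18 and 7.75 ± 0.05 on the log2 scale (SD, n = 3), a difference of -0.64 (SE 0.15; limma, BH-adjusted p = 0.0463).

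A dimmer SPRY4 probe, ILMN_1797596, had signals of 133, 102 and 117 and then 99, 102 and 99. It differed by -0.46 (95% interval -0.80 to -0.12) and did not pass (limma, BH-adjusted p = 0.126), except with array weights (0.0237). Without background correction the difference was -0.19, and on the authors' processed values -0.22. Of the remaining SPRY4 probes, ILMN_1688811 was detected on 1 control and 1 siP/CAF array and ILMN_1741168 on 0 of 6, and neither was tested. The SPRY4 call was lost when any 1 of the 6 arrays was left out. The adjusted p was 0.15, 0.0559 and 0.0622 without control array 1, 2 and 3, and 0.156, 0.144 and 0.128 without siP/CAF array 1, 2 and 3 (limma, BH-adjusted), while the difference lay between -0.73 and -0.56.

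SPRY2, a widely expressed Sprouty protein, had 1 probe. It (ILMN_2089329) gave 6555, 5062 and 6820 in control cells and 4297, 4559 and 3952 after siP/CAF, without overlap. The SPRY2 level was 12.59 ± 0.20 and 12.05 ± 0.10 on the log2 scale (SD, n = 3). The difference of -0.54 (95% interval -0.89 to -0.18) did not pass (limma, BH-adjusted p = 0.0924). It passed in 4 alternative fits: without background correction (0.0407), on the authors' processed values (0.0438), with array weights (0.0468) and with a larger offset (0.0492).

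SPRY1, SPRED1 and DUSP6 did not pass with all arrays weighted equally. SPRY1, a Sprouty protein that keeps muscle stem cells quiescent in mice, gave 1278, 845 and 1243 in control cells and 1227, 1228 and 987 after siP/CAF on probe ILMN_2329914, a difference of 0.12 (95% interval -0.22 to 0.46). Probe ILMN_1691860 of SPRY1 differed by -0.10 (95% interval -0.47 to 0.27). The remaining SPRY1 probe, ILMN_1769280, was detected on 1 of 6 arrays and was not tested. The groups overlapped on both tested SPRY1 probes.

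SPRED1, which brings the RAS inhibitor neurofibromin to the membrane, gave 1593, 1209 and 1798 in control cells and 1953, 2009 and 1584 after siP/CAF. It was the inhibitor with the highest difference, 0.33 (95% interval -0.03 to 0.69; limma, BH-adjusted p = 0.314), and its groups overlapped, siP/CAF array 3 lying below control array 3. With array weights SPRED1 passed as a rise of 0.47 (limma, BH-adjusted p = 0.039). DUSP6, the cytoplasmic ERK phosphatase, gave 602, 379 and 495 and then 431, 473 and 469 on probe ILMN_2396020, with a difference of -0.01 (95% interval -0.36 to 0.34). A dimmer DUSP6 probe, ILMN_1677466, was detected on 5 of 6 arrays and differed by -0.16 (95% interval -0.68 to 0.37). The interval of the brighter DUSP6 probe does not reach the -0.64 measured for SPRY4, while that of the dimmer holds it. The difference between the genes was not tested.

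**Figure D2:**
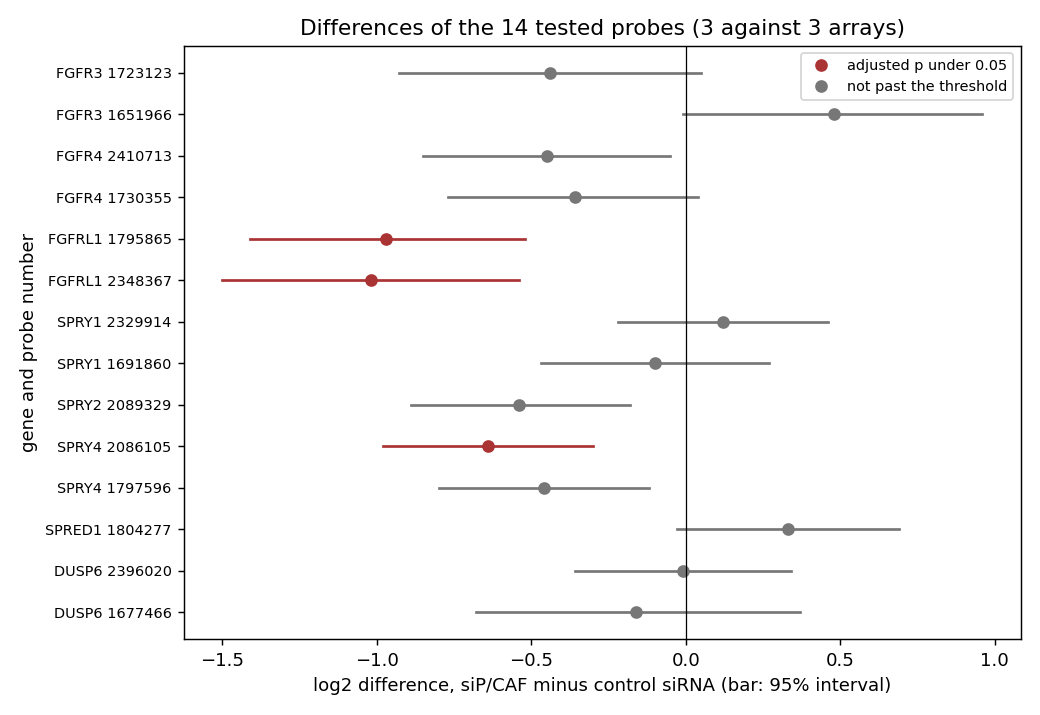
Log2 difference (siP/CAF minus control siRNA, x axis) of each tested probe (y axis), with bars for the 95% interval from limma; red marks passed the threshold on the adjusted p of 0.05. Both FGFRL1 probes lie near -1 (-0.97 and -1.02), SPRY4 at -0.64 and -0.46, and the SPRY1 and DUSP6 intervals include 0.

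The member probes followed particular arrays within each group. Control array 3 was the highest of the controls on 9 of the 14 tested probes, against 43.7% of all tested probes. Among siP/CAF arrays, array 3 was the lowest on 12 of the 14, against 44.2% of all tested probes. The FGFRL1 and FGFR4 probes had control array 3 as their highest array. Without control array 3 the brighter FGFRL1 probe still passed (limma, BH-adjusted p = 0.0382).

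**Figure D3:**
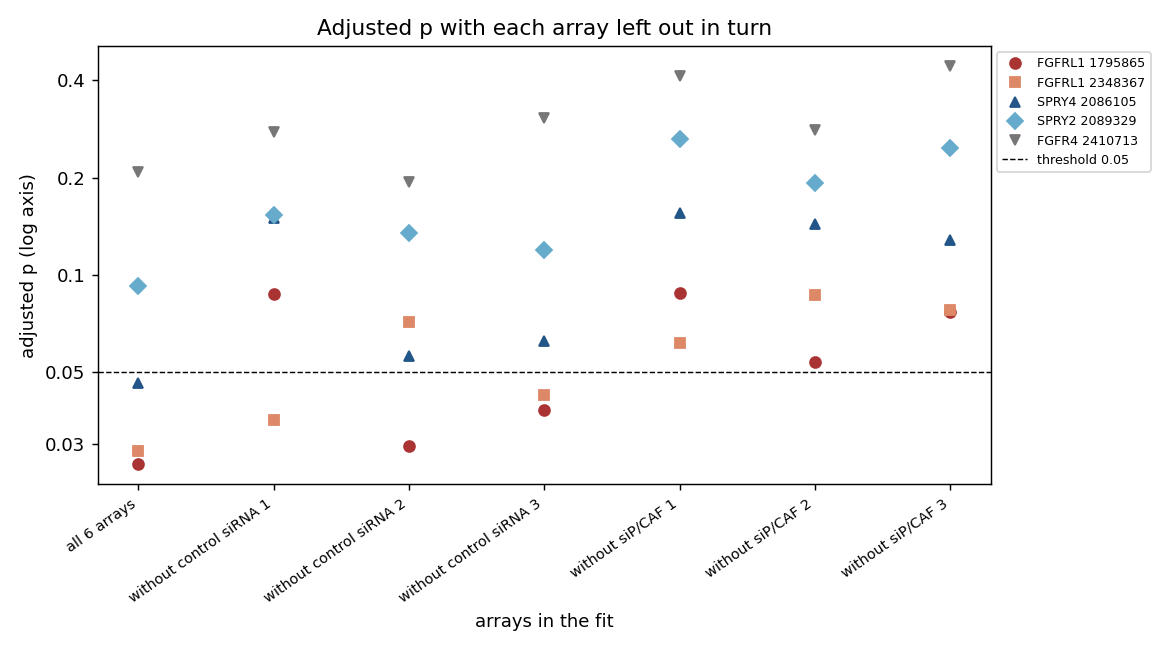
Adjusted p (y axis, log scale) of 5 member probes with all 6 arrays and with each array left out in turn (x axis); the dashed line is the threshold of 0.05. With all arrays both FGFRL1 probes and SPRY4 lie below the line, and SPRY4 rises above it whichever array is left out.

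The genes with the profiles nearest to those of the members were sought among 11805 other genes, by the root mean square difference in log2 signal over the 6 arrays after each profile was centred on its control mean. For FGFRL1 they were F13A1 (0.0389), DCUN1D4 (0.0497) and PDE4B (0.0522). For SPRY4 they were RABL6 (0.0286), PLA2G15 (0.0499) and PID1 (0.0657), for FGFR4 BCAT1 (0.0272), NEK6 (0.0297) and ARMC5 (0.0317), and for SPRY2 CTNS (0.0344), SCARB1 (0.0417) and FBXO10 (0.0419). With 6 arrays in 2 groups, such nearness reflects mainly a like difference between groups.

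Around the receptors, 8 of 77 tested genes of the wider pathway changed, 5 higher and 3 lower, against 5.39% of all 11806 tested genes (2.28% higher and 3.11% lower). Each gene was counted by its brightest tested probe, and the lists named 112 genes. Their median log2 difference was 0.05, against -0.01 for all tested genes.

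Of the ligands, FGF1 rose. FGF1 is the acidic FGF, which binds all 4 kinase receptors. Its probe ILMN_2349982 gave 111, 95 and 103 in control cells and 171, 174 and 156 after siP/CAF, without overlap. In log2 units the FGF1 level rose from 5.55 ± 0.08 to 6.81 ± 0.08 (SD, n = 3), a difference of 1.26 (SE 0.14; limma, BH-adjusted p = 0.0016). The probe is dim, and without background correction the difference was 0.63. The other FGF1 probes, ILMN_1753322 and ILMN_1699735, were detected on no control array and on 2 and 1 siP/CAF arrays, and were not tested. FGF1 passed in all 14 alternative fits that held it, and a filter asking for stronger detection on every array left it out. Of 22 listed FGF genes 9 were tested, 1 rose, none fell and 5 had an unadjusted p under 0.05, against 20.6% of all tested genes. FGF2 measured 0.60, FGF7 -0.72 and FGF8 -0.70, none past the threshold (limma, BH-adjusted p = 0.107, 0.115 and 0.141). The list had a median of 0.02. It also held the intracellular family members FGF11 to FGF14, of which FGF11 (0.02) and FGF13 (0.24) were tested.

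Coreceptors and the enzymes that build or edit heparan sulfate changed in both directions. Of 23 tested members 2 rose and 2 fell, and the median was -0.25. In limma 11 had an unadjusted p under 0.05, against 20.6% of all tested genes. HS2ST1, which adds the 2-O-sulfate that FGFs recognise, gave 1048, 748 and 1058 in control cells and 525, 570 and 501 after siP/CAF. HS2ST1 fell by 0.82, in log2 units from 9.76 ± 0.08 to 8.94 ± 0.04 (SD, n = 3; limma, BH-adjusted p = 0.0132). SULF2, an extracellular sulfatase that removes 6-O-sulfates, gave 105, 111 and 116 and then 85, 69 and 76 on its only tested probe, ILMN_1667460. It was not detected on any siP/CAF array, so its fall has only a bound, at least 1.55-fold lower after siP/CAF on the background-corrected scale (limma, BH-adjusted p = 0.015). That bound depends on the correction: without it the SULF2 log2 difference was -0.48, and on the authors' processed values -0.56. The other SULF2 probes, ILMN_2345142 and ILMN_1686981, were detected on no array. EXT1, a polymerase of the heparan sulfate chain, rose by 0.80, and SDC4, a syndecan that carries such chains, by 0.68 (limma, BH-adjusted p = 0.0378 and 0.0486).

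The relay from receptor to ERK showed no called change. Of 16 tested adaptors and kinases none passed in limma, with 2 at an unadjusted p under 0.05 (20.6% of all tested genes), and the median was -0.01. The scaffold KSR1 measured -0.59 and the adaptor FRS3 0.45 (limma, BH-adjusted p = 0.129 and 0.14).

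Of 13 other feedback inhibitors DUSP5 rose and none fell, against 5.39% of all tested genes called in either direction. Their median was 0.12, and 3 had an unadjusted p under 0.05 in limma, against 20.6% of all tested genes. DUSP5, the nuclear ERK phosphatase, gave 1122, 738 and 1028 in control cells and 1424, 1620 and 1509 after siP/CAF, and rose by 0.77 on the log2 scale (limma, BH-adjusted p = 0.0178). SPRED2, the paralog of SPRED1, measured 0.05 and did not pass. Of 16 genes that respond to ERK in many cells 1 rose and 1 fell, 11 had an unadjusted p under 0.05, against the 20.6% of all tested genes, and the median was 0.40. The immediate-early gene IER2 rose by 0.65 and FOS, a subunit of AP-1, fell by 0.60 (limma, BH-adjusted p = 0.0383 and 0.0482). A dimmer MAFF probe, named here after its value was seen, rose by 0.73, against 0.42 on the brighter MAFF probe, which did not pass. The ETS factors ETV4 and ETV5, which FGF signalling induces in many tissues, measured 0.20 and -0.20 and did not pass.

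Several of these calls were lost when 1 array was left out. Calls over all tested probes then also fell, from 972 to between 301 and 526, except without control array 3 (1112). None of the differences of these genes changed sign. HS2ST1 lost its call without control array 1 or siP/CAF array 1 or 2, and SULF2 without siP/CAF array 2. DUSP5, EXT1 and IER2 lost theirs without each array except control array 3, and SDC4 and FOS without any 1 of the 6. Over these the adjusted p reached 0.0761 for HS2ST1, 0.0592 for SULF2, 0.0827 for DUSP5, 0.137 for EXT1, 0.136 for IER2, 0.196 for SDC4 and 0.197 for FOS (limma, BH-adjusted). FOS also lost its call without background correction, with median scaling and on the authors' processed values (0.0607, 0.0534 and 0.0601), and EXT1 and SDC4 without a filter on dim probes (0.0682 and 0.0649).

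**Figure D4:**
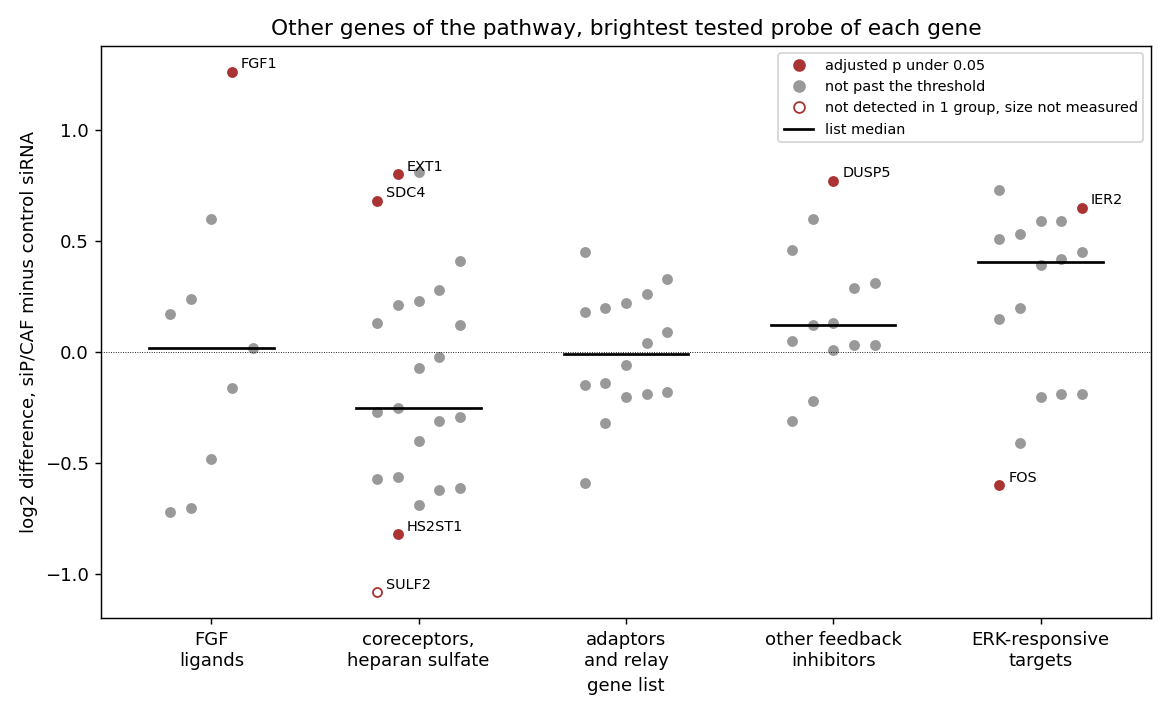
Log2 difference (siP/CAF minus control siRNA, y axis) of each tested gene in 5 lists of the FGF pathway (x axis), by its brightest probe; red marks passed the threshold on the adjusted p and are named, and black lines are list medians. The open mark is SULF2, which no siP/CAF array detected, so that its height does not measure the size of its fall. FGF1 stands highest at 1.26, and the ERK-responsive genes have a median of 0.40 with IER2 above and FOS below 0.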

How the data were processed

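Expression was read on Illumina bead arrays from 6 Rh30 samples. In the deposited non-normalized table each probe has 1 bead signal per array, a linear intensity per the file headers. The deposited score next to it carries the heading of a p value; because it grows with the signal, it was taken as 1 minus the detection p. The deposited series matrix was taken as log2 values centred per probe, with column medians of 0. Scale, centring and direction were inferred: over probes above 150 on every array, its columns followed the log2 signals with positive slopes (0.85 to 1.07, r from 0.933 to 0.97). The sources used here give neither its normalization nor any software.

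Normexp background correction with detection p-values, an offset of 16, quantile normalization and a log2 transform were applied (neqc in limma 3.58.1, run in R 4.3.3). To be tested, a probe needed a detection p under 0.05 on 3 or more arrays. Groups were compared with lmFit and eBayes without a block, with Benjamini-Hochberg adjustment over all tested probes at 0.05. The procedure was tested on simulated data. A group with no detected array gave a bound, from the higher of the probe's value and the lowest detected value per array. Probes were named from the platform annotation (30113 with 1 symbol, 8 with several, 17202 with none here); their sequences were not used. The number of arrays limits the precision.

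All member probes are named; a gene's level is that of its tested probe of highest mean signal. In each pathway list the genes past the threshold are named, or the 2 of smallest p where none passed; other list genes, and the motifs, were named or chosen after values were seen. Nearest profiles were sought for the brightest receptor and inhibitor and the genes that passed. Members and lists were chosen with earlier results of these data known. Alternatives changed background correction, offset, normalization, filter, array weights, values, block and arrays left out.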

Additional observations from a re-analysis of the deposited data

How the results depend on the processing

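Of the 21232 tested probes 972 were called, of the member probes 3 and of the pathway genes 8. With 1 array left out these counts ran from 301 to 1112, from 0 to 2 and from 1 to 12; the 0 arose without siP/CAF array 1, 2 or 3 (limma), where 4, 7 and 7 member probes had an unadjusted p under 0.05. With array weights the counts were 2865, 6 and 24, and of the 6 member probes SPRED1 was higher and the other 5 lower. Fitting every probe without a filter called 1 member probe. The replicate numbers 1 and 2 stand in the labels of both groups. The deviations of these same-numbered arrays from their group means correlated at -0.15 and -0.41. Over the remaining pairs of a control and a siP/CAF array the correlations ran from -0.56 to 0.48. Deviations from a group mean are tied to one another, so these values cannot decide whether the arrays were paired. With the replicate block on those 4 arrays limma called 0 member probes (6 at an unadjusted p under 0.05) and 5 pathway genes, and 688 probes in all. The same 4 arrays without the block, a fit added after the data were seen, gave 0 member probes (7 at an unadjusted p under 0.05), 10 pathway genes and 1241 probes. Other alternatives kept the 3 counts within 1.5 times.

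FGFRL1, FGFR3, FGFR4, SPRY2, SPRY4, SPRED1 and the brighter of the SPRY1 probes kept the sign of their differences in every alternative run. With 1 array left out the brighter DUSP6 probe ran from -0.08 to 0.08, turning to 0.08 without control array 1 and 0.05 without siP/CAF array 1. The dimmer ran from -0.38 to 0.07, turning to 0.07 without siP/CAF array 3, and turned to 0.07 with array weights and to 0.15 on the 4 numbered arrays with the replicate block and without it. The dimmer SPRY1 probe ran from -0.23 to 0.02, turning to 0.02 without control array 1. The SPRY4 call was also lost with median scaling (adjusted p = 0.0519), and both FGFRL1 calls without a filter (limma, Benjamini-Hochberg adjusted p = 0.0598 and 0.0717). The causes were not tested. Sizes at dim probes depend on the background correction.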
